A study of Rattus norvegicus with 16 samples.

Results

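The class V myosins of the rat proximal femur, Myo5a, Myo5b and Myo5c, were described by their signals in 4 inbred strains. They were chosen by name: every probe set of the array whose single platform symbol was one of these 3 genes was taken, which gave 5 probe sets of 31099 and 3 genes of 14218. The trio was picked because Myo5c was nearly absent in one strain, Dark Agouti, so every Myo5c value set against that strain is given as a description, with no test. No probe set with several symbols named a class V myosin.

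Messenger RNA was measured on 16 Affymetrix arrays, 4 for each strain: DA (Dark Agouti), F344 (Fischer 344), LEW (Lewis) and COP (Copenhagen 2331). All animals were 4 weeks old, untreated as far as the labels say, and their sex was not given. The labels number the replicates but do not say that they came from separate animals, so the p-values measure only the spread between these arrays. The study was made to compare strains at a locus on chromosome 4, where no class V myosin lies: Myo5a and Myo5c are on chromosome 8 and Myo5b is on chromosome 18.

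Class V myosins are motor proteins that walk along actin filaments and carry cargo. A motor head is followed by a long neck that binds calmodulin and light chains, and by a tail that takes hold of vesicles or organelles, often through Rab GTPases and their adaptors. Myo5a is known for moving melanosomes in pigment cells and endoplasmic reticulum in neurons, and loss of it in the mouse dilutes the coat colour. Myo5b works with Rab11 proteins in endosome recycling, and its loss in humans causes a disease of the intestinal epithelium. Myo5c is known mainly from secretory epithelia such as exocrine glands, where it associates with secretory granules.

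Myo5a and Myo5c stand next to each other on the same strand of chromosome 8, and their signals took different paths across the strains. For that reason the stretch from 250 bases before to 50 bases after each annotated start is shown, from the RefSeq promoter table of the reference assembly GRCr8, which is not a sequence of any of the 4 strains' arrays. All 3 genes matched that table by symbol. The Myo5c window is chr8:84869793-84870092 and the Myo5a window chr8:84692699-84692998, both on the plus strand. Capitals mark the motifs searched on either strand, which were TATAAA, with it the motif CCAAT, then the motif GGGCGG, then TGACTCA and lastly CACGTG. A run CCGCCC in capitals is thus GGGCGG read on the other strand.
Myo5c: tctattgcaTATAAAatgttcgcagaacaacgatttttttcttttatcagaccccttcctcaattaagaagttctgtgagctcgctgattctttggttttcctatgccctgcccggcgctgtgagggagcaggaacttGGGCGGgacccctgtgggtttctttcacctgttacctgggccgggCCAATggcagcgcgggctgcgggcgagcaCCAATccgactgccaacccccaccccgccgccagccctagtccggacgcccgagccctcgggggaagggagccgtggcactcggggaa
Myo5a: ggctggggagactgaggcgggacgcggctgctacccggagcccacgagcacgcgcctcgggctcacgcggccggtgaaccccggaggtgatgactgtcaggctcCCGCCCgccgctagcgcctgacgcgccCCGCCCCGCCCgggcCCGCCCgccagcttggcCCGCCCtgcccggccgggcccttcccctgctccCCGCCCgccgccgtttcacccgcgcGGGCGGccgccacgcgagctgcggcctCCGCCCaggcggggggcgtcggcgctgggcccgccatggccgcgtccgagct

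The 2 windows differed in make-up. The Myo5c window held 59.0% G and C and 20 CpG dinucleotides, and the Myo5a window 81.3% and 47, while the median over all 33469 promoters of the table was 51.7% and 7. The Myo5b window was like that of Myo5a, with 78.7% G and C and 47 CpG. The Myo5c window had 1 TATAAA, 2 CCAAT and 1 GGGCGG, against 8 GGGCGG and none of the other motifs in the Myo5a window, where 2 of the 8 share bases. The TATAAA lies close to the upstream end of the window, far from the annotated start. Of all promoters, 14.2% held TATAAA, 37.5% CCAAT and 33.1% GGGCGG, and 4.6% held TGACTCA and 6.4% CACGTG, which neither printed window contains. These matches describe the letters of the windows and were not tied to any measurement.

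The values are array signals in arbitrary units on a linear scale, which the authors had scaled to a 2% trimmed mean of 1000.31 to 1000.33 on every array. No detection calls were used here, so a filter served to mark dim probe sets: a mean log2 signal below the 40th percentile, which is a signal of 174. Of the 5 class V myosin probe sets 3 passed it, namely the single Myo5a probe set and 2 of the 3 of Myo5c. The Myo5c pair passed through the 3 strains in which it is bright. Signals of different probe sets are not compared with each other, because each probe set binds with its own strength.

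Myo5c was dim on all 4 DA arrays and bright on all 12 others. Its probe set 1391018_at had signals of 78.1, 54.4, 51.2 and 75.5 on the DA arrays. It had 5765, 5533, 5294 and 5353 on the F344 arrays. The LEW arrays gave 11542, 10536, 11799 and 9528, and the COP arrays 6351, 7495, 7584 and 8316. Every DA array lay below the filter signal of 174, and no array of the other strains came near it. Means were 64.8 ± 14.0 in DA, 5486 ± 212 in F344, 10851 ± 1037 in LEW and 7437 ± 812 in COP (SD, n = 4 each).

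On the log2 scale this probe set differed by -6.43 in DA minus F344, by -7.41 in DA minus LEW and by -6.86 in DA minus COP, each with a standard error of 0.117. Since the DA signals were in the range of dim probe sets, where a fold is not well measured, 174 can be put in their place as a ceiling. Myo5c was then at least 31.6-fold lower in DA than in F344, at least 62.3-fold lower than in LEW and at least 42.7-fold lower than in COP. Ranked by the size of the log2 difference as measured, without the ceiling, this probe set stood at place 3 of 18625 in DA minus F344. It stood at place 2 in both other DA contrasts. These values chose the gene and are not tested. The 3 DA contrasts share the DA arrays.

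The probe set 1374122_at of Myo5c had the same low strain. The DA arrays gave 133, 71.8, 96.0 and 111, and the F344 arrays 3337, 3325, 3067 and 3290.3. The LEW arrays gave 5007, 4121, 4699 and 3897, and the COP arrays 3198, 3757, 3756 and 4042. All 4 DA arrays were again under 174 and apart from the rest. The means were 103 ± 25.9 in DA, 3255 ± 127 in F344, 4431 ± 511 in LEW and 3688 ± 353 in COP (SD, n = 4 each). The log2 differences were -5.02, -5.46 and -5.19 for DA minus F344, LEW and COP, with a standard error of 0.133. With 174 as the ceiling for DA, they were falls of at least 18.7-fold, 25.4-fold and 21.2-fold.

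The third Myo5c probe set, 1380067_at, showed no such split. Its signals ran from 38.7 to 156 in DA, from 60.8 to 209.9 in F344, from 53.0 to 209.8 in LEW and from 50.5 to 165 in COP. It lay under 174 on 14 of 16 arrays, all 4 of DA among them, and the strains overlapped throughout. Its means were 107 in DA, 128 in F344, 107 in LEW and 108 in COP. It was below the filter and so was not tested, and a probe set this dim in every strain gives no measure of the gene. Over the 16 arrays the log2 signals of the 2 bright probe sets followed each other with a Pearson r of 0.998, most of it the gap between DA and the rest.

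**Figure D1:**
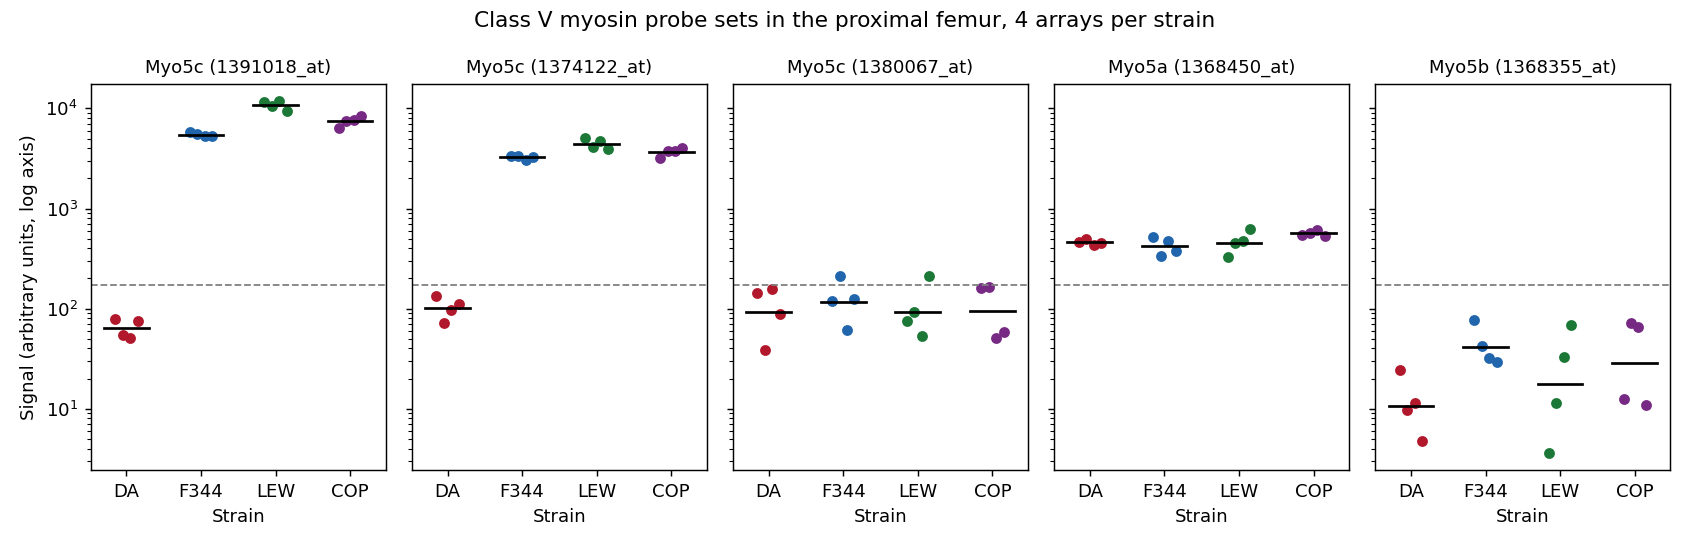
Signals of the 5 class V myosin probe sets on a log axis, 1 point per array and 4 arrays per strain, with a black bar at the geometric mean of each strain and a dashed line at the filter signal of 174. Both bright Myo5c probe sets have all 4 DA points under the line and the other 12 far above it, while Myo5a lies between 327 and 619 in every strain and Myo5b under the line on all arrays.

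Among the 3 strains that carry the Myo5c signal, the level was lowest in F344, higher in COP and highest in LEW. The rule that chose the gene did not use these comparisons, which were tested with limma. For 1391018_at, F344 minus LEW was -0.98 (95% confidence interval -1.22 to -0.74, adjusted p = 4e-06), so that the F344 signal was 1.97-fold lower. F344 minus COP was -0.43 (-0.68 to -0.19, adjusted p = 0.0116), a 1.35-fold lower signal in F344. LEW minus COP was 0.55 (0.30 to 0.79, adjusted p = 0.00241), a 1.46-fold higher signal in LEW. In none of the 3 comparisons did the 4 arrays of one strain overlap those of the other. Of all 18625 probe sets tested, 13.8% were called in F344 minus LEW, 19.9% in F344 minus COP and 13.7% in LEW minus COP. Non-overlapping arrays were found for 18.3%, 25.1% and 17.4% of them in the same order of comparisons.

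The order of the strains was the same for 1374122_at, with smaller steps. F344 minus LEW was -0.44 (standard error 0.133, adjusted p = 0.0312), and this call was lost without any 1 of the 4 F344 arrays or without LEW replicate 1 or 3 (adjusted p between 0.0571 and 0.0914), as well as without the intensity trend (0.0629). F344 minus COP was -0.18 (95% confidence interval -0.45 to 0.10, adjusted p = 0.401) and LEW minus COP was 0.26 (-0.01 to 0.54, adjusted p = 0.223). Neither passed the test, and in both the arrays of the strains overlapped. LEW replicate 4 was the lowest of the LEW arrays for both bright probe sets. Its mean log2 level of the cartilage marker list stood 0.41 above the mean of all arrays and that of the osteoblast list 0.24 above it. On the same scale, COP replicate 1, the lowest COP array for both probe sets, was at 0.459 for cartilage. COP replicate 4, the highest for both, was at -0.365. LEW replicate 1, the highest LEW array for 1374122_at, was at -0.575, and LEW replicate 3, the highest for 1391018_at, at -0.304. LEW replicate 2 was at -0.052, COP replicates 2 and 3 at 0.255 and -0.024, and the F344 arrays between 0.164 and 0.221. The epithelial list, of which 2 genes passed the filter, was at 0.566, 0.178, 0.523 and 0.14 on LEW replicates 1 to 4. On COP replicates 1 to 4 it was at -0.499, -0.294, -0.324 and -0.28, and in F344 between 0.075 and 0.288. In DA it lay between -0.234 and -0.103. The part of these markers in the Myo5c levels was not tested. In RNA of a whole piece of bone, fewer cells of a type and less RNA per cell cannot be told apart.

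Because both bright probe sets read the same gene on the same array, their ratio was taken, a measure chosen after the values were seen. The signal of 1391018_at over that of 1374122_at was 1.73, 1.66, 1.73 and 1.63 in F344, 2.31, 2.56, 2.51 and 2.44 in LEW, and 1.99, 1.99, 2.02 and 2.06 in COP. It averaged 1.69 ± 0.0492 in F344, 2.45 ± 0.109 in LEW and 2.01 ± 0.0320 in COP (SD, n = 4 each). No 2 of these strains overlapped. The log2 ratio differed by -0.54 in F344 minus LEW, by -0.26 in F344 minus COP and by 0.28 in LEW minus COP. Each of the 3 comparisons had an exact permutation p of 0.0286, two-sided, which is the smallest that 4 against 4 arrays can give, and 0.0286 after Benjamini-Hochberg adjustment over the 3. These p-values follow from the lack of overlap and add nothing to it. On these arrays the 2 probe sets changed unequally between strains. From F344 over COP to LEW the mean ratio rose in the same order as the mean signal of 1391018_at. Whether the ratio goes with the level or with the strain was not tested.

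Such ratios often differ between these strains. Of 2786 genes with at least 2 kept probe sets, the ratio of the 2 brightest did not overlap for 12.1% in F344 minus LEW, 14.0% in F344 minus COP and 14.5% in LEW minus COP. For 33 of these genes, 1.18%, it did not overlap in any of the 3, and Myo5c was of this kind. In DA the Myo5c ratio was 0.586, 0.758, 0.533 and 0.681, but both signals in it were under 174. Where on the Myo5c transcript each probe set lies was not given in the sources used here.

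**Figure D2:**
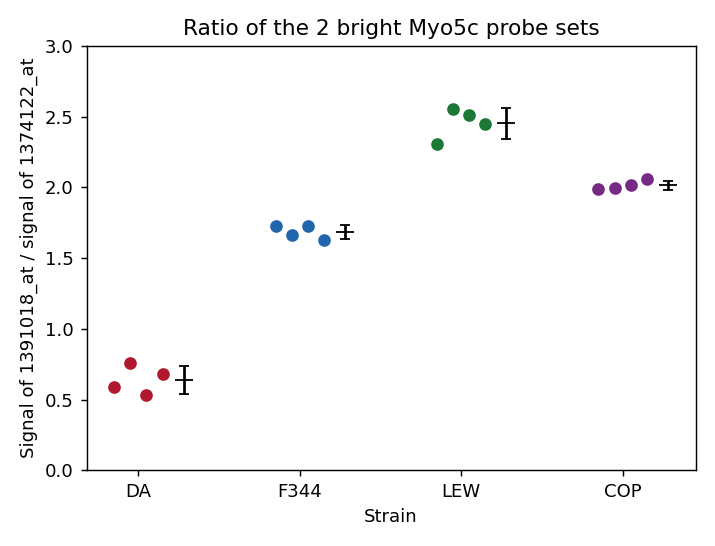
Ratio of the signals of the Myo5c probe sets 1391018_at and 1374122_at, 1 point per array, with the mean and SD of each strain beside the points. The F344, LEW and COP points form 3 groups that do not overlap, around 1.69, 2.45 and 2.01, and the DA points are ratios of signals under 174.

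Myo5a, the class V myosin next to Myo5c on chromosome 8, was measured on all 16 arrays at signals between 327 and 619. The DA arrays gave 459, 499, 428 and 456, and the F344 arrays 514, 339, 477 and 378. The LEW arrays gave 327, 452, 472 and 619, and the COP arrays 538, 572, 613 and 537. DA lay inside the range of F344 and of LEW, and below all 4 COP arrays. Means were 460 ± 29.5 in DA, 427 ± 82.0 in F344, 468 ± 120 in LEW and 565 ± 35.8 in COP (SD, n = 4 each).

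No strain difference of Myo5a passed the limma test. DA minus F344 was 0.13 (95% confidence interval -0.21 to 0.46, adjusted p = 0.649), in a comparison where 16.1% of all probe sets were called. DA minus LEW was 0.01 (-0.32 to 0.35, adjusted p = 0.977), with 10.4% of all called. DA minus COP was -0.29 (-0.295, interval -0.63 to 0.04, adjusted p = 0.261), with 11.9% of all called. Non-overlapping arrays, as Myo5a had in DA minus COP, were found for 21.5% of all probe sets in DA minus F344, 13.4% in DA minus LEW and 16.4% in DA minus COP. The lower ends of these 3 intervals lie far above the fall of Myo5c in DA.

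The largest Myo5a difference was F344 minus COP, -0.42 (95% confidence interval -0.76 to -0.09, adjusted p = 0.0703), and the arrays of these strains did not overlap, which held for 25.1% of all probe sets. It passed the threshold when the 8 arrays of F344 and COP were fitted alone (adjusted p = 0.042), with array weights (0.0343), and without F344 replicate 1 (0.0407), LEW replicate 1 (0.0328) or LEW replicate 4 (0.0401). F344 minus LEW was -0.12 (adjusted p = 0.705) and LEW minus COP was -0.31 (adjusted p = 0.241). Myo5a varied more within LEW and F344 than within DA and COP, with coefficients of variation of 25.6% and 19.2% against 6.41% and 6.34%.

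Myo5b was under the filter signal on every array. Its probe set gave 24.4, 9.75, 11.3 and 4.78 in DA, and 77.8, 42.4, 31.9 and 29.1 in F344. It gave 3.64, 11.5, 33.2 and 69.1 in LEW, and 12.6, 72.5, 65.4 and 10.9 in COP. The signals within LEW and within COP spread as widely as those between strains, and the DA arrays lay below all 4 F344 arrays. Means were 12.5 ± 8.35 in DA, 45.3 ± 22.4 in F344, 29.4 ± 29.3 in LEW and 40.3 ± 33.2 in COP (SD, n = 4 each). Without the filter, no contrast of Myo5b passed the limma test, and the lowest adjusted p of the 6 was 0.194, for DA minus F344 at -1.97 on the log2 scale. A strain difference in Myo5b was not detectable at these signals.

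The tissue was bone by its markers, and no marker list set DA apart as Myo5c did. Col1a1, the main collagen of bone, ran from 56190 to 75008 over the 16 arrays, and Bglap (osteocalcin), Ibsp, Spp1, the osteoclast enzymes Acp5 and Ctsk and the cartilage collagen Col2a1 were all bright on every array. Of 13 lists of cell type markers, in none were all DA arrays below, or all above, every other array by the summed signal of the list. Of 14 epithelial markers 13 had a probe set and 2 passed the filter. Epcam, Krt7, Krt18, Krt19, Cldn3, Cldn4, Elf3 and Tjp3 were under 174 on all arrays. The summed epithelial signal ran from 2945 to 3304 in DA, from 3503 to 3869 in F344, from 3463 to 4370 in LEW and from 2414 to 2984 in COP. Of 14 exocrine secretory markers 12 had a probe set and 4 passed the filter, with 7 under 174 on all arrays. Their summed signal ran from 39792 to 51854 in DA, from 34309 to 37166 in F344, from 38310 to 44526 in LEW and from 42934 to 47324 in COP. The exocrine list also holds Ltf, a gene of the neutrophil granule list, and its sum was not split by gene. It is thus not shown to measure exocrine cells. Neither sum was lowest in DA, but the epithelial sums of all DA arrays lay below every F344 and LEW array and overlapped COP. Of the 2 kept epithelial genes, 1 was called lower in DA minus F344 and 1 lower in DA minus LEW. In DA minus COP 1 was called higher. Of all genes, 17.3%, 10.4% and 12.2% were called in these contrasts. The cells that hold the Myo5c signal in F344, LEW and COP were not identified from these data.

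Few genes followed Myo5c. The 5 genes with the highest Pearson r to 1391018_at over the 16 arrays were Atp6ap1l on chromosome 2 (0.989), Rexo4 on chromosome 3 (0.974), Hacl1 on chromosome 16 (0.956), Sppl2a on chromosome 3 (0.955) and Plec on chromosome 7 (0.955). Hacl1 is a peroxisomal enzyme of fatty acid oxidation, Sppl2a is an intramembrane protease and Plec links the filaments of the cytoskeleton. None of them is on chromosome 8. These r values rest largely on the low DA arrays, so they describe a shared gap in 1 strain.

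Atp6ap1l had the highest correlation with Myo5c. It averaged 23.2 ± 5.92 in DA, 585 ± 97.7 in F344, 820.1 ± 111 in LEW and 885 ± 88.2 in COP (SD, n = 4 each). All 4 of its DA arrays were under 174, so only a lower bound can be given for its drop. With 174 in their place, its smallest drop in DA against another strain was at least 1.74 on the log2 scale, where that of Myo5c was at least 4.98. Unlike Myo5c, its mean was higher in COP than in LEW, although the arrays of these strains overlapped.

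By the smallest drop in DA of the signals as measured, the rule also named Pira2, an immunoglobulin-like receptor, Myl4, a myosin light chain of atrial and embryonic muscle, Gpr4, a proton-sensing receptor, and Sppl2a. Myl4 had a drop of 1.89 and Sppl2a of 1.20, with all DA arrays at or above 174. Pira2 and Gpr4 were under 174 on all 4 DA arrays, and their drops were at least 1.65 and at least 0.20, so that their order against Myl4 and Sppl2a is not settled. Myl4 averaged 246 ± 85.8 in DA, 1168 ± 70.7 in F344, 983 ± 195 in LEW and 878 ± 136 in COP (SD, n = 4 each). Of 14241 kept probe sets with 1 symbol, 2 had a smallest drop in DA of at least 2 on this bounded scale, and both were Myo5c probe sets, while 10 had one of at least 1. Since this drop chose Myo5c, the counts are a description.

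**Figure D3:**
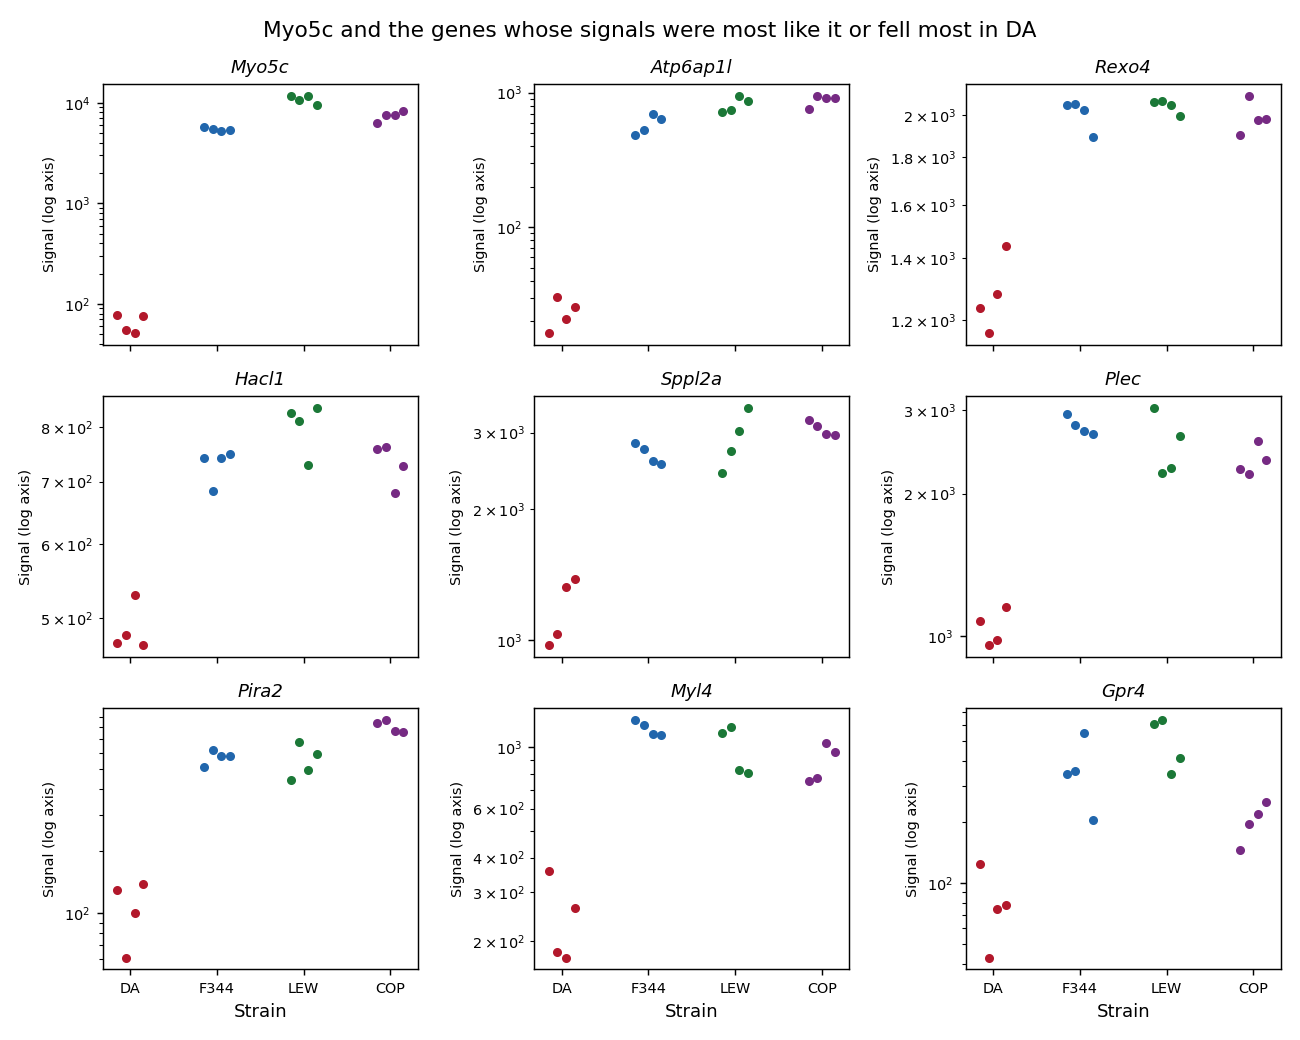
Signals, each on its own log axis, of Myo5c and of the genes most like it by correlation over the 16 arrays or by the size of their drop in DA, 1 point per array. The DA points of Myo5c, Atp6ap1l, Pira2 and Gpr4 are all under 174, so their falls are lower bounds, while Rexo4 and Hacl1 have smallest drops of 0.64 and 0.58 (0.585) on the log2 scale.

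The genes on either side of Myo5a and Myo5c on chromosome 8 were examined next. Of the 10 nearest genes with a named probe set, 5 on each side, 6 passed the filter, namely Arpp19, Atosa, Gnb5, Mapk6, Leo1 and Tmod3. Gnb5, a G protein subunit that directly follows Myo5c, differed by -0.32 in DA minus F344 (adjusted p = 0.14), by -0.29 in DA minus LEW (0.227) and by less than 0.01 in DA minus COP (0.995). Taken by the brightest probe set of each, the differences of the 6 genes ran from -0.43 to -0.16 in DA minus F344, from -0.74 to -0.06 in DA minus LEW and from -0.87 to 0.00 in DA minus COP. The fall of Myo5c was thus several log2 units larger than that of any neighbour measured.

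Some neighbours were nevertheless lower in DA. Tmod3, which caps the slow-growing ends of actin filaments, averaged 2279 ± 175 in DA, 3066 ± 309 in F344, 3812 ± 302 in LEW and 4188 ± 496 in COP (SD, n = 4 each), and the DA arrays lay below all others. It fell by 0.43 in DA minus F344 (adjusted p = 0.00223), by 0.74 in DA minus LEW (5.19e-06) and by 0.87 in DA minus COP (6.43e-07). Against F344, 2 more of the 6 were called lower, Mapk6, a protein kinase, at -0.33 (0.00352) and Arpp19, a phosphatase regulator, at -0.26 (0.0292). The Arpp19 call was lost without F344 replicate 1, 3 or 4 or DA replicate 2 or 4, and without the intensity trend. By their brightest probe sets, 3 of 6 neighbours were called lower against F344, 1 against LEW and 1 against COP, where 8.11%, 4.65% and 5.74% of all genes tested were called lower in DA. The probe sets of Arpp19 did not move alike: 1394318_at was called lower in DA against all 3 strains (-0.36, -0.26 and -0.29), and 1393008_at in none. Nor did those of Atosa, where 1374574_at was called lower in DA minus F344 at -0.58 (adjusted p = 0.0234) and the brighter 1393352_at was at -0.22 (0.0821).

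**Figure D4:**
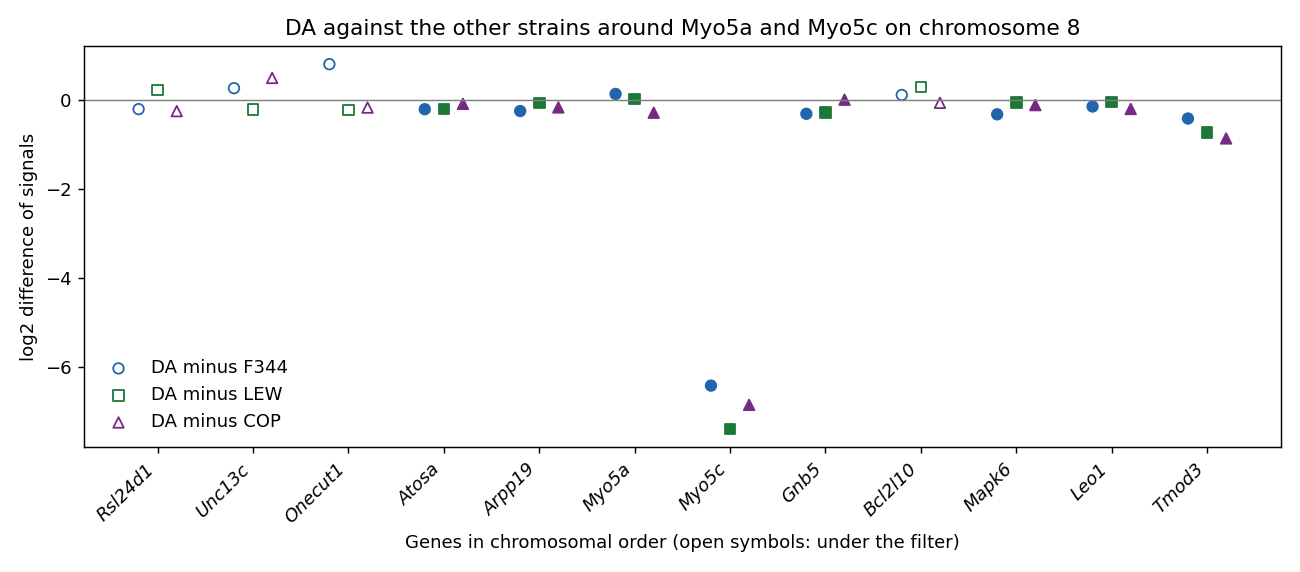
Difference in log2 signal of DA minus F344, LEW and COP for Myo5a, Myo5c and the 5 named genes on each side, in chromosomal order, with open symbols for genes under the filter. Myo5c stands at -6.43 to -7.41, while the neighbours that passed the filter lie between -0.87 and 0.00.

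Myo5b has its own neighbours on chromosome 18, of which 8 of 10 passed the filter. Acaa2, a mitochondrial enzyme of fatty acid oxidation that directly follows Myo5b, fell by 0.78 in DA minus F344 (adjusted p = 6.46e-05) and by 0.58 in DA minus COP (0.00179). DA minus LEW was 0.11 (0.646). Ska1, a kinetochore protein, was higher in DA than in F344 by 0.35 (0.0182), a call lost without F344 replicate 1 or 4 or DA replicate 3. Myo5b itself was too dim to be set beside them.

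Most of the genes listed as partners of class V myosins were bright enough to be tested. Of 25 genes on the list of Rab GTPases, adaptors and other partners, all had a probe set and 21 passed the filter. In DA minus F344, 2 were called higher and 3 lower, which is 23.8% of the 21, where 17.3% of all 10548 genes were called. In DA minus LEW, 1 was higher and 3 were lower (19.0%, against 10.4% of all genes), and in DA minus COP all 5 called were lower (23.8%, against 12.2%). In F344 minus LEW all 4 called were lower (19.0%, against 14.5%), in F344 minus COP 2 were higher and 4 lower (28.6%, against 21.0%), and in LEW minus COP 2 were higher and 2 lower (19.0%, against 14.1%). The place of Tmod3 on this list is less sure than that of the Rab proteins, and without it 4 of 20 were called in DA minus F344, 3 in DA minus LEW, 4 in DA minus COP, 3 in F344 minus LEW and 5 in F344 minus COP. Each share rests on few genes, none was tested, and contrasts with a strain in common share its arrays.

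The median difference of the 21 partners stayed close to that of all genes. It was -0.05 in DA minus F344, -0.04 in DA minus LEW and -0.07 in DA minus COP, where the medians of all genes were 0.001, 0.015 and -0.003. In F344 minus LEW, F344 minus COP and LEW minus COP it was 0.02, -0.06 and -0.07. No partner showed a loss in DA of the size of Myo5c, and 11 of the 21 were called in at least 1 contrast, where 4224 of 10548 genes (40%) were.

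Tmod3, described above as a neighbour, had the largest difference of the partner list. Sytl2, a Rab27 effector that tethers vesicles to the membrane, averaged 959 ± 145 in DA, 1654 ± 111 in F344, 1711 ± 169 in LEW and 1155 ± 193 in COP (SD, n = 4 each). DA and COP formed the low pair, and their arrays overlapped. Sytl2 fell by 0.80 in DA minus F344 (adjusted p = 4.24e-05) and by 0.84 in DA minus LEW (2.24e-05), while F344 minus COP was 0.53 (0.00224) and LEW minus COP was 0.58 (0.00123).

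The Rab27 pair, small GTPases of secretory vesicles and melanosomes that recruit Myo5a through adaptors, were both higher in DA than in F344. Rab27b, on chromosome 18, averaged 577 ± 117 in DA and 391 ± 29.6 in F344, a difference of 0.54 (adjusted p = 0.00652). Rab27a, on chromosome 8, averaged 2780 ± 182 in DA and 2294 ± 65.4 in F344, a difference of 0.27 (0.275, adjusted p = 0.00398). Rab27a was highest in COP, at 3196 ± 95.4, and DA minus COP was -0.20 (0.0371). This call was lost without any 1 of the COP arrays or without DA replicate 1 or 4. It was also lost with median centring, without the intensity trend and with 2 strains alone. Rab27a had F344 minus COP at -0.48 (adjusted p = 9.76e-06) and LEW minus COP at -0.29 (0.00254). Mlph, the melanophilin adaptor between Rab27a and Myo5a in pigment cells, averaged 199 ± 73.4 in DA and 209 ± 17.4 in F344 (-0.14, adjusted p = 0.764). Of the melanocyte markers 6 had a probe set and 1 passed the filter, and Tyr, Tyrp1 and Dct were under 174 on all arrays.

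Of the light chains that sit on the neck of class V myosins, 2 of 7 listed genes had a probe set, and both passed the filter. Dynll2, a light chain shared with dynein, averaged 5643 ± 346 in F344 and 4773 ± 466 in COP, a difference of 0.25 (0.245, adjusted p = 0.0433). It was the single call of the list, and it was lost without F344 replicate 2, 3 or 4, LEW replicate 3, or COP replicate 1 or 2. DA minus COP of Dynll2 was 0.22 (adjusted p = 0.0931), and Calm2, a calmodulin gene, was called in no contrast.

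Other unconventional myosins also differed between strains, by amounts far below those of Myo5c. Of 22 listed genes 14 had a probe set and 11 passed the filter, and 7 of these 11 were called in at least 1 contrast, where 4224 of 10548 genes (40%) were. In DA minus F344, 1 was higher and 3 were lower, in DA minus LEW 1 was higher and 1 lower, and in DA minus COP 1 was lower. These are 36.4%, 18.2% and 9.09% of the 11, where 17.3%, 10.4% and 12.2% of all genes were called. In F344 minus COP, 3 were higher and 2 lower (45.5%, against 21.0%), and in LEW minus COP 1 was higher and 2 were lower (27.3%, against 14.1%). In F344 minus LEW limma called 0 of 11, and 1 had an unadjusted p under 0.05.

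Myo1e, a class I myosin of cell membranes and endocytosis, gave the largest of these differences. It averaged 585 ± 72.8 in DA, 1260 ± 188 in F344, 1236 ± 173 in LEW and 644 ± 58.6 in COP (SD, n = 4 each). Like Sytl2 it had a low pair, DA and COP, and a high pair, F344 and LEW, with no overlap between the pairs. Myo1e fell by 1.10 in DA minus F344 (adjusted p = 1.39e-06) and by 1.08 in DA minus LEW (2.02e-06), and DA minus COP was -0.14 (0.51). Myo1e is on chromosome 8, as are Myo5a, Myo5c, Tmod3 and Rab27a.

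Myo1f, a class I myosin of blood cells, was ordered the other way. It averaged 1852 ± 128 in DA, 1326 ± 119 in F344, 1430.0 ± 118 in LEW and 2173 ± 102 in COP (SD, n = 4 each). DA minus F344 was 0.48 (adjusted p = 0.000207), DA minus LEW was 0.37 (0.00311) and F344 minus COP was -0.72 (1.27e-06). Some markers of marrow cells moved with it in some contrasts, and others did not. Of 7 neutrophil granule markers kept, 6 were called higher in DA minus F344 and 5 lower in F344 minus COP. Of 4 B lymphoid markers, all 4 were called in these directions. Of all genes, 17.3% and 21.0% were called in these contrasts in either direction. In DA minus LEW, 3 neutrophil markers were called higher and 1 lower, where 10.4% of all genes were called. There 2 B lymphoid markers were called lower and 0 higher, against the direction of Myo1f. Of 9 macrophage markers, 1 was called higher and 1 lower in DA minus F344, and 3 higher and 1 lower in DA minus LEW. In F344 minus COP 3 of them were higher, against the direction of Myo1f, and 1 was lower. Of 6 erythroid markers, 2 were called higher in DA minus F344, and 0 were called in DA minus LEW or F344 minus COP. The summed neutrophil signal ran from 203675 to 251842 in DA, from 171716 to 180584 in F344, from 195187 to 226809 in LEW and from 223530.0 to 238848 in COP. The summed B lymphoid signal ran from 9871 to 12094 in DA, from 7851 to 8346 in F344, from 15107 to 16979 in LEW and from 12684 to 15498 in COP. The part of these marrow markers in the Myo1f result was not tested. Myo1g, a class I myosin of lymphocytes, averaged 1144 ± 173 in DA and 1526 ± 55.9 in COP, a difference of -0.43 (adjusted p = 0.00987). Myo18b, a myosin of striated muscle, averaged 1437 ± 67.2 in F344 and 1072 ± 193 in COP (0.44, adjusted p = 0.0397). This call was lost without any 1 of the F344 arrays or without COP replicate 1 or 2. It was also lost without the filter, without the intensity trend and with the replicate block. Of 8 skeletal muscle markers, all kept, 4 were called higher in F344 minus COP, where 21.0% of all genes were called in either direction. The summed signal of these markers ran from 293384 to 312508 in F344 and from 219675 to 271133 in COP. Their part in the Myo18b result was not tested.

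**Figure D5:**
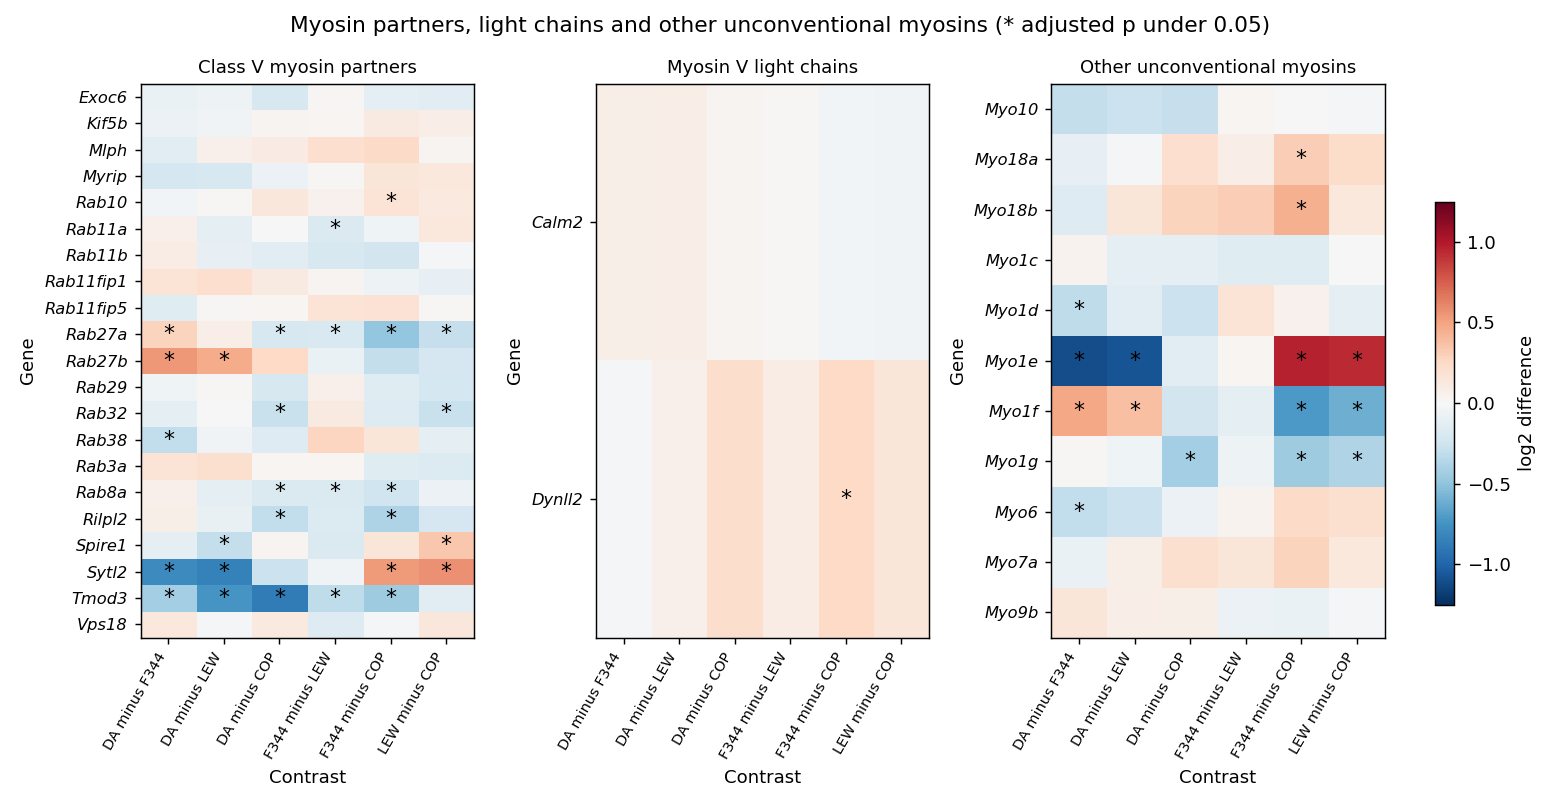
Differences in log2 signal in the 6 strain contrasts for the kept genes of the partner, light chain and other unconventional myosin lists, with blue for lower and red for higher in the first strain and an asterisk where the adjusted p of limma was under 0.05. The strongest colours belong to Myo1e, Sytl2, Tmod3 and Myo1f, and the partner list holds both colours in every contrast.

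Conventional nonmuscle myosins drive contraction rather than transport. The genes of their list, which also holds Mylk, Rock1 and Rock2 beside the myosin chains, all passed the filter, 9 of 9. In DA minus F344, 2 were higher, Mylk, the myosin light chain kinase, at 0.30 (adjusted p = 0.00251) and the heavy chain Myh9 at 0.26 (0.0137, lost without F344 replicate 3 or 4). Myl12b, a regulatory light chain, averaged 10975 ± 266 in DA and 13337 ± 685 in COP, a difference of -0.28 (adjusted p = 0.000622). In DA minus LEW and in DA minus COP, 1 gene each was higher and 1 lower. Each of the 3 DA contrasts thus called 22.2% of the 9, where 17.3%, 10.4% and 12.2% of all genes were called. Myl9, another regulatory light chain, was lower in LEW than in COP by 0.37 (adjusted p = 0.000832). The largest difference among the 9 that was called with no overlap of arrays was this 0.37, against 0.87 for Tmod3 and 1.10 for Myo1e.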

How the data were processed

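RNA of the proximal femur (5 ug per labelling, per the labels' protocols) was measured on 16 arrays, 4 per strain. The intensity values the authors deposited are linear, with 1 signal per probe set and array, and the submitters' processing notes name MAS5. Scaling target and detection calls: not given in the sources used here. Scaling to a common mean leaves dim signals noisy. The 57 control probe sets of 31099 were left out, names came from the platform annotation, and log2 was taken after a floor of 1 (255 values). The 18625 probe sets with a mean log2 at or above the 40th percentile were fitted with limma 3.58.1 (R 4.3.3): a mean for each strain, an intensity trend and 12 residual degrees of freedom. Two-sided p-values were adjusted after Benjamini-Hochberg across these probe sets, at a threshold of 0.05. Each of 10548 genes was taken by its brightest kept probe set. The code was tested on simulated data. Precision is limited by having 4 arrays per strain.

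The members and lists (17, with 189 genes) were chosen with earlier results of these data known. Named list genes were up to 4 per list with the largest called differences and no overlap between arrays, genes like Myo5c were 5 by correlation and 5 by smallest drop in DA, and neighbours were 5 per side, leaving out symbols that are mere locus numbers. Mlph, Dynll2 and Calm2 were named outside this rule, to describe roles. Promoters came from a RefSeq table of GRCr8, and the order of genes from its gene table. Replicate numbers did not pair the arrays: over 24 same-numbered pairs the correlation of deviations ran from -0.17 to 0.09. Alternatives were quantile normalization, median centring, a pseudocount (19.3), dropping the filter or raising it to the 60th percentile, no trend, robust moderation, the replicate block, 2 strains alone, array weights, averaging all probe sets of a gene and leaving out each array. The ratio of probe sets, the lower bounds of drops in DA and the counts without Tmod3 were chosen after seeing the data. Plots used matplotlib 3.10.9.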

Additional observations from a re-analysis of the deposited data

Results flagged for a closer look

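One value of the class V myosins lay apart from its group. The Myo5c probe set 1374122_at had a signal of 3067 on the array of F344 replicate 3, below the 3290.3, 3325 and 3337 of the other F344 arrays, and its gap to the nearest of them was 0.832 of the range of the group, just above Dixon's 95% critical value for 4 samples. In all, 20 groups of 4 arrays were examined and 1 stood out, and chance gives about 1 in 20. Without this array F344 minus LEW of 1374122_at was -0.41 (adjusted p = 0.0843), against -0.44 (0.0312) with it. The cause was not tested.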

How the results depend on the processing

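Both bright Myo5c probe sets stayed lower in DA under every alternative run for them. For 1391018_at, DA minus F344, LEW and COP was -6.05, -7.02 and -6.48 with the pseudocount. With the mean of the log2 signals of all 3 Myo5c probe sets, which adds the dim one, it was -3.92, -4.29 and -4.02, and F344 minus LEW, F344 minus COP and LEW minus COP were -0.37, -0.10 and 0.27, no longer past the threshold (adjusted p = 0.233, 0.787 and 0.416). Leaving out each array gave -1.04 to -0.94, -0.51 to -0.38 and 0.47 to 0.61 for these 3, all past it. Myo5a reversed in DA minus LEW to -0.011 with quantile normalization and -0.002 with median centring, and ran from -0.148 to 0.159 leaving out each array. F344 minus LEW ran from -0.276 to 0.031, turning without LEW replicate 4, and F344 minus COP from -0.52 to -0.32. Myo5a in F344 minus COP became a call at -0.42 with 2 strains alone and at -0.42 (-0.417) with array weights. Calls among the 34 partner, light chain and other myosin genes in F344 minus LEW numbered 4, and 2 with quantile normalization, 2 without the filter, 1 without the trend, 1 with 2 strains alone and 0 to 4 leaving out each array. They were 0 without F344 replicate 2, F344 replicate 4 or LEW replicate 3, where limma gave 7, 6 and 7 at an unadjusted p under 0.05, 1 without F344 replicate 1 or LEW replicate 2, and 2 without F344 replicate 3. In DA minus COP they numbered 6, and 3 with median centring, 2 without the trend and 2 to 8 leaving out each array, with 2 without COP replicate 1 or 2 and 3 without DA replicate 1, 2 or 4. The 5 genes most like Myo5c shared 0 with those found from 1380067_at, the dim probe set. The replicate block changed no call of the class V myosins: F344 minus LEW of 1391018_at was -0.98 (adjusted p = 2.63e-05) with it, and of 16 arrays 4 were closest to their own number. Causes were not tested. Dim signals limit what can be said of Myo5b, of 1380067_at and of the DA level of Myo5c.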
